A study of Mus musculus with 7 samples.

Results

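Mouse miRNAs that earlier work ties to T cell activation or to helper T cell subsets were followed by name: mmu-miR-182-5p, mmu-miR-183-5p, mmu-miR-96-5p, mmu-miR-132-3p, mmu-miR-212-3p, mmu-miR-221-3p, mmu-miR-222-3p, mmu-miR-7a-5p, mmu-miR-31-5p and mmu-miR-210-3p, written below without the species prefix. The 10 were taken by name, not by their values, from the 1881 miRNA names on the array, and all 10 were present there. CD4+ T cells were bead-selected from the draining lymph nodes of mice in a myocarditis model, EAM (4 arrays), or an infarction model, LAD (3 arrays). RNA of each sample was hybridised to a one-colour Agilent miRNA array. The sample labels place EAM at day 6 after induction and LAD at day 3, while the series text gives these days in the opposite order; the sample labels are used here. Mouse strain, age and sex, any agent used for induction and the number of animals behind each array are not given in the sources used here. No sham or untreated group was analysed here, so each comparison sets EAM against LAD, and the effects of model, day and position on the slide cannot be told apart. Because no resting cells were measured, whether these miRNAs were induced by activation cannot be read from these arrays.

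A miRNA is a short RNA that guides Argonaute to partly matching messages, mostly through its seed, bases 2 to 8, and lowers their translation or stability. Activated helper T cells replace part of their miRNA set, and several of the 10 are known parts of that switch. miR-182, made with miR-183 and miR-96 from a shared transcript, is known to restrain Foxo1 in dividing helper T cells. miR-132 and miR-212 come from a shared CREB-responsive transcript, and miR-221 and miR-222 are known to target Kit and the cell cycle inhibitor p27. miR-7 is best known from neuroendocrine cells, miR-31 from the control of T cell cytokine output and of Foxp3, and miR-210 is induced by HIF under hypoxia.

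The mature sequences are shown because the members fall into families that share a seed, and what an array can separate depends on the bases outside it. They are from RefSeq (table of assembly GRCm38.p6), 5′ to 3′, with the seed in capitals. All 10 members were matched, along with miR-7b-5p and miR-7a-1-3p, which the miR-7 results turn on.
miR-7a-5p: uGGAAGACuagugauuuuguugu
miR-7b-5p: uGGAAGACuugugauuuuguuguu
miR-7a-1-3p: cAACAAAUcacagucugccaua
miR-132-3p: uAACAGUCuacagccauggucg
miR-212-3p: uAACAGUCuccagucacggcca
miR-96-5p: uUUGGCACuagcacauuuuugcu
miR-182-5p: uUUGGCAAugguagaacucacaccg
miR-183-5p: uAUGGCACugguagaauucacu
miR-221-3p: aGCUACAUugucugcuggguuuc
miR-222-3p: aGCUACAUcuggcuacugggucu
miR-31-5p: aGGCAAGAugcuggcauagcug
miR-210-3p: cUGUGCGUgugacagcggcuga

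Pairs with the same seed were miR-132-3p with miR-212-3p, miR-221-3p with miR-222-3p, and miR-7a-5p with miR-7b-5p. Position by position from the 5′ end, miR-132-3p and miR-212-3p had the same base at 17 of 22 positions and miR-221-3p and miR-222-3p at 11 of 23. miR-7a-5p and miR-7b-5p were the same at 22 of 23 positions and differed by A10U, counted from 1 at the 5′ end of miR-7a-5p. The 3 members of the miR-183 cluster have seeds that differ by 1 or 2 bases: from miR-96-5p, miR-182-5p differs by C8A and miR-183-5p by U2A, and from miR-182-5p, miR-183-5p differs by U2A and A8C. miR-1928 shares the seed of miR-221-3p and miR-222-3p and was detected on no array. miR-1271-5p, which shares the seed of miR-96-5p, was not analysed here.

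The array carried 2 probes for each member, each printed as 15 spots, so a member's value on an array rests on 30 spots. The probes of miR-7a-5p and miR-7b-5p are shown because they differ at a single base.
miR-7a-5p, shorter probe: acaacaaaatcactagtcttc
miR-7a-5p, longer probe: acaacaaaatcactagtcttcc
miR-7b-5p, shorter probe: acaacaaaatcacaagtcttcc
The closest other miRNA to either miR-7a-5p probe was miR-7b-5p, at 1 mismatch, so the array may not fully separate these paralogs. The miR-212-3p probes were 13 and 14 bases long and came within 2 and 3 mismatches of miR-7b-3p, which was detected on no array. The miR-183-5p probes came within 3 mismatches of miR-182-5p, and the miR-132-3p probes within 5 mismatches of miR-212-3p.

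The array design maps the probes to mouse build mm9. The miR-183 cluster lies on the minus strand of chromosome 6, with miR-182-5p at chr6:30115934-30115948, miR-96-5p at chr6:30119471-30119491 and miR-183-5p at chr6:30119677-30119694. miR-212-3p and miR-132-3p lie side by side on the plus strand at chr11:74986954-74986966 and chr11:74987232-74987246. miR-221-3p and miR-222-3p lie on the minus strand at chrX:18723483-18723501 and chrX:18724075-18724087. The miR-7a-5p probes map to both of its genes, at chr7:86033182-86033203 on the plus strand and chr13:58494164-58494185 on the minus strand, so its signal sums over both. miR-31-5p was placed at chr4:88556494-88556509 and miR-210-3p at chr7:148407355-148407369, both on the minus strand. In the RefSeq gene table, Mir182, Mir96 and Mir183 lie within the noncoding gene Mirc35hg, Mir7-1 within Hnrnpk, and Mir31 within Gm49890, while no gene spanned the other members' genes.

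Detection, as marked by the scanner software for each miRNA and array, divided the members before any comparison. Of the 10 members, 6 (60.0%) were detected on at least 1 array, against 553 of all 1881 names (29.4%). Only miR-7a-5p and miR-212-3p were detected on all 7 arrays. miR-96-5p, miR-132-3p and miR-221-3p were detected on all 4 EAM arrays and on 1 LAD array each, and miR-31-5p on 3 EAM arrays and 1 LAD array. miR-182-5p, miR-183-5p, miR-222-3p and miR-210-3p were detected on none. Each EAM array detected 5 or 6 members, and LAD 1, 2 and 3 detected 3, 5 and 2.

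**Figure D1:**
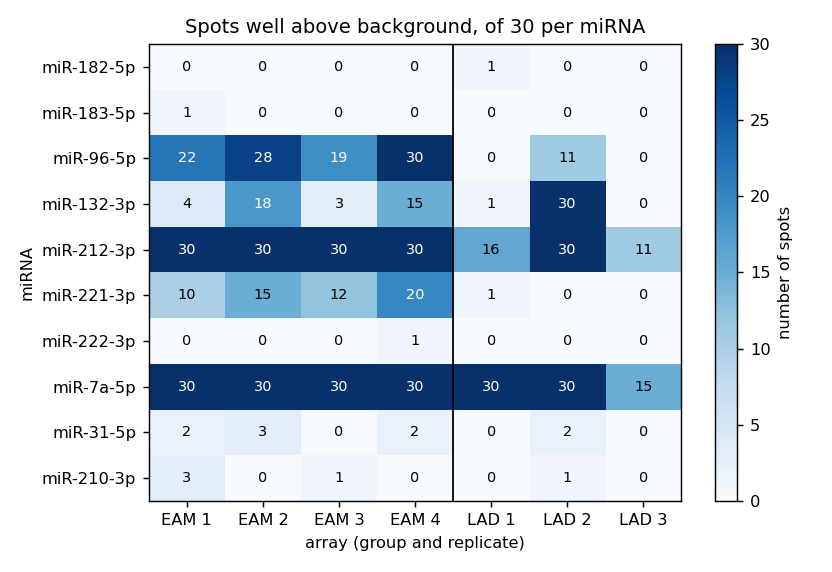
Number of spots marked well above background, of 30, for each of the 10 members (rows) on each array (columns; the vertical line parts EAM from LAD). miR-7a-5p had 30 such spots on every array except LAD 3, with 15, and miR-132-3p had 30 on LAD 2 alone.

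The LAD arrays were dimmer as a whole. They detected 311 to 380 miRNAs, against 445 to 471 on the EAM arrays, and the 75th percentile of background-subtracted signal over the 299 probes detected on every array was 126 to 513 intensity units in LAD against 835 to 1108 in EAM. The part of overall brightness in the members' lower detection in LAD was not tested. The 4 lymphocyte markers fixed for the check of cell type (miR-150-5p, miR-142a-3p, miR-342-3p and miR-181a-5p) were detected on all 7 arrays. They did not differ alike between the groups: miR-181a-5p was higher in LAD (difference EAM minus LAD -3.24, adjusted p = 0.00935) and miR-150-5p higher in EAM (1.42, adjusted p = 0.0327). Both varied within LAD: on LAD 1, 2 and 3 miR-181a-5p was at 9.01, 11.97 and 11.54, and miR-150-5p at 12.19, 9.79 and 11.18. The part of these marker differences in the members' differences was not tested. Markers of stroma (0 of 4), muscle (0 of 3) and liver (0 of 1) were detected on none. Of the red cell and endothelial markers, 1 of 3 and 1 of 2 were detected on any array. The myeloid marker miR-223-3p was higher in LAD, with a linear level of 199 to 572 against 76.4 to 96.3 in EAM (log2 difference -1.74, adjusted p = 0.0103). It was higher in LAD in all 24 alternative settings and passed in 21. With no scaling between arrays its difference was -0.06 (adjusted p = 0.905), where the median of all miRNAs tested was 1.37. Of the 5 epithelial markers 4 were detected, and their summed linear level over all 5 was 115 to 154 in EAM and 64.1 to 82.0 in LAD, with miR-205-5p detected nowhere; their part in the members' differences was not tested.

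Values below are log2 signal after background correction and quantile normalisation, and differences are EAM minus LAD. A miRNA was tested, with limma, where all arrays of EAM or all arrays of LAD detected it, which 423 did, and p-values were adjusted by Benjamini-Hochberg over all 423. The labels do not say whether arrays came from separate animals, so p-values measure the spread between these samples only. At an adjusted p of 0.05, 259 miRNAs (61.2%) differed, 157 higher in EAM (37.1%) and 102 higher in LAD (24.1%). Of the 5 members tested, 1 was higher in EAM, miR-7a-5p, and 0 were higher in LAD; 2 of the 5 had an unadjusted p under 0.05 in limma, miR-7a-5p and miR-212-3p, both higher in EAM. Groups did not overlap for 1 of the 5, miR-7a-5p, and for 56.5% of all miRNAs tested. The median difference of the 5 was 0.55, and the median over all 423 was 0.40. Of the 5, miR-96-5p, miR-132-3p and miR-221-3p entered the test through their detection in EAM only. The count and median, and the p-values of these 3, are therefore descriptions. The other 5 members did not pass the detection filter and are given by their values.

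**Figure D2:**
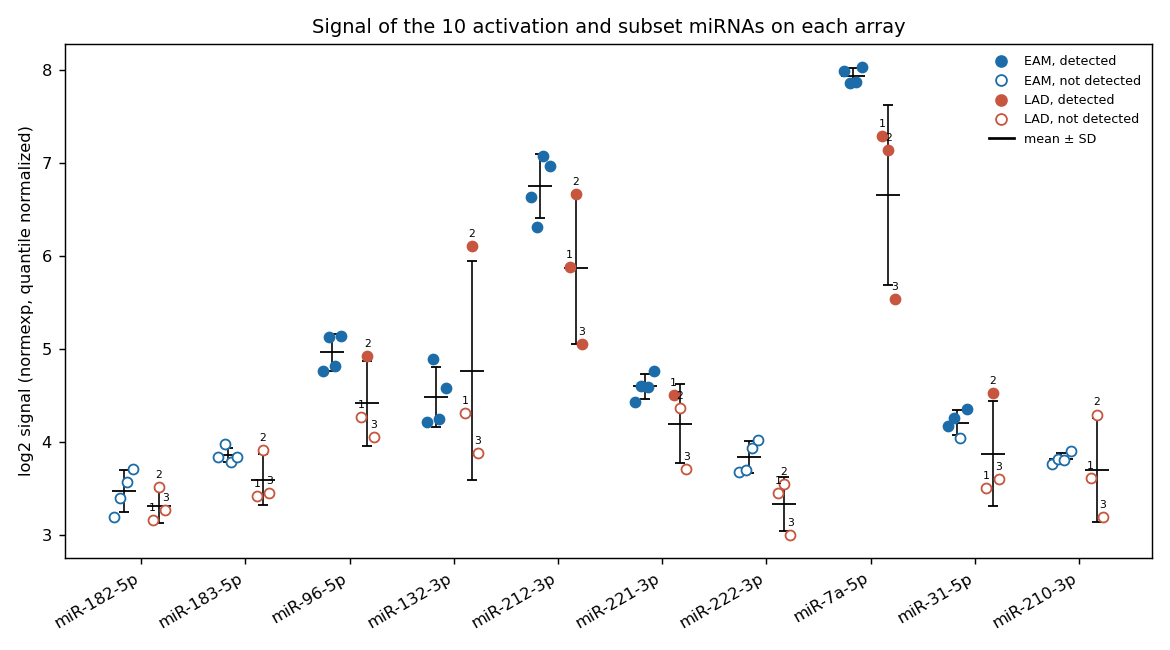
log2 signal of each member on each array (EAM blue, LAD red, with the LAD replicate number; filled where the miRNA was detected, open where not); the horizontal marks are group means and the bars ± 1 SD. The EAM arrays lie close together for miR-7a-5p, and LAD 3 lies lowest or LAD 2 highest within LAD for most members.

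The largest difference among the 5 members tested was that of mmu-miR-7a-5p. Its level was 7.99, 7.86, 7.87 and 8.03 on the 4 EAM arrays and 7.28, 7.13 and 5.53 on the LAD arrays. Every EAM array lay above every LAD array, which held for 34.3% of the miRNAs tested, and LAD 3 stood well below the other two. The EAM mean of 7.94 ± 0.083 (SD, n = 4) and the LAD mean of 6.65 ± 0.97 (SD, n = 3) gave a difference of 1.29 (SE 0.39, 95% confidence interval 0.38 to 2.19, adjusted p = 0.0260), or 2.44-fold. Of the 423 tested miRNAs, 30 had a larger difference towards EAM, and miR-7a-5p lay 0.88 above the median of all. In these bulk samples, fewer cells that carry a miRNA and less of it per cell cannot be told apart.

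The spread of miR-7a-5p in LAD was 11.7 times that in EAM, which a fit with a single variance for both groups does not model. A test with unequal variances gave an adjusted p of 0.239, and the limma test against a fold of 1.5 gave 0.237. Without LAD 3 the difference fell to 0.73 and the call held (adjusted p = 0.0252); without LAD 1 or LAD 2 it was 1.60 or 1.53. Leaving out any EAM array kept the difference at 1.26 to 1.31 and ended the call, with adjusted p from 0.0523 to 0.0650. In 16 of 24 alternative settings the difference passed the threshold, always towards EAM, with differences from 0.59 to 2.61 and adjusted p from 0.00410 to 0.239.

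Both miR-7a-5p probes differed in the same direction, by 1.47 for the shorter and 1.11 for the longer. Before any scaling, the median background-subtracted spot was at 351, 339, 314 and 444 intensity units in EAM and at 52.7, 114 and 17.9 in LAD, and no spot was saturated. On LAD 3 only 15 of 30 spots were well above background, against 30 of 30 on each other array. Scaling each array by its 75th percentile over the probes that all arrays detected brought the difference to 0.59 (adjusted p = 0.0376), with the median miRNA tested at -0.05. In the authors' deposited value table, fitted in the same way, the difference was 1.05 (adjusted p = 0.0180).

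The other miR-7 products detected differed in the same direction. miR-7a-1-3p is the opposite arm of the hairpin encoded by Mir7-1, and its probes came no closer than 3 mismatches to another miRNA, miR-7a-2-3p. Its level was 6.10, 6.30, 6.51 and 6.72 in EAM and 5.45, 5.76 and 4.79 in LAD, so the groups did not overlap. The means were 6.41 ± 0.27 (SD, n = 4) and 5.33 ± 0.50 (SD, n = 3), and the difference was 1.08 (SE 0.27, adjusted p = 0.0144), or 2.11-fold. On LAD 3, 0 of its 30 spots were well above background, although the scanner software marked it as detected there.

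miR-7b-5p, the paralog with the seed of miR-7a-5p, was detected on all 4 EAM arrays and on no LAD array. It measured 4.39, 4.54, 4.65 and 4.80 in EAM and 3.73, 3.98 and 3.61 in LAD, again without overlap. By the main values it was 1.77-fold higher in EAM, a difference of 0.82. Setting each LAD array to the higher of its own value and the lowest detected miRNA left the LAD mean at 3.77. The fold is therefore an estimate and not a lower bound. miR-7b-5p entered the test only through its detection in EAM, the group where it was higher. Its adjusted p of 0.0107 in limma is conditional on that and is given as a description. With 1 mismatch between the probes, its signal may hold some miR-7a-5p, and how much was not tested. miR-7a-2-3p and miR-7b-3p were detected on no array.

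**Figure D3:**
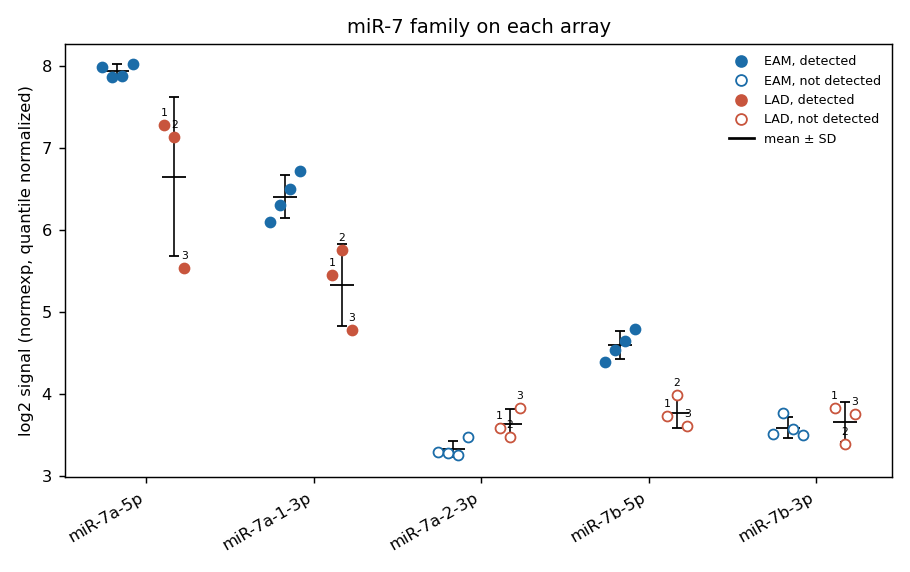
log2 signal of the 5 miR-7 products on each array (EAM blue, LAD red with the replicate number; filled where detected, open where not; marks and bars are means ± SD). For miR-7a-5p, miR-7a-1-3p and miR-7b-5p every EAM array lies above every LAD array; miR-7a-2-3p and miR-7b-3p were detected nowhere.

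The directions of all 3 miR-7 products held in every setting that gave a value, but sizes and calls did not. miR-7a-1-3p passed in 20 of 24 alternatives and fell to a difference of 0.07 in the scaling by detected probes. miR-7b-5p passed in 17 of 21 and fell to 0.02 under median centring. With replicate number as a block none of the 3 passed: adjusted p was 0.0559 for miR-7a-5p, 0.0695 for miR-7a-1-3p and 0.0917 for miR-7b-5p. Of the 13 other arms and paralogs of the members on the array, miR-7a-1-3p and miR-7b-5p were the 2 tested, and the other 11 were detected on no array.

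mmu-miR-212-3p, the more widely detected member of the CREB-responsive pair, measured 6.63, 6.31, 7.07 and 6.96 in EAM and 5.88, 6.66 and 5.05 in LAD. LAD 2 lay above EAM 1 and EAM 2, so the groups overlapped. The means were 6.75 ± 0.34 (SD, n = 4) and 5.86 ± 0.81 (SD, n = 3). The difference of 0.88 (SE 0.37, 95% confidence interval 0.03 to 1.73), or 1.84-fold, had an unadjusted p of 0.0438 and an adjusted p of 0.0656 in limma, and so did not pass. Both probes pointed the same way, at 0.85 and 0.92. Without LAD 2 the difference was 1.28 (adjusted p = 0.00413) and without LAD 3 it was 0.47 (adjusted p = 0.228), with adjusted p from 0.00364 to 0.494 over all 24 alternatives, of which 3 passed.

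The partner mmu-miR-132-3p, from the same transcript and with the same seed, varied most within LAD. Its level was 4.21, 4.89, 4.25 and 4.57 in EAM and 4.31, 6.10 and 3.88 in LAD. LAD 2 was the highest array and LAD 3 the lowest. On LAD 2 all 30 spots were well above background, against 3 to 18 in EAM, 1 on LAD 1 and 0 on LAD 3. The median background-subtracted spot was 42.7 intensity units on LAD 2 and 5.07 to 23.2 elsewhere. The means were 4.48 ± 0.32 (SD, n = 4) and 4.76 ± 1.18 (SD, n = 3), and the difference of -0.28 (SE 0.49, 95% confidence interval -1.40 to 0.84, adjusted p = 0.613) was well within the spread of LAD.

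The sign of that difference rested on LAD 2: without it miR-132-3p differed by 0.39 (adjusted p = 0.146), and no alternative passed, with adjusted p from 0.0511 to 0.976. Centred on their own means over the 7 arrays, the profiles of miR-132-3p and miR-212-3p lay a root-mean-square difference of 0.75 apart, and 191 of 418 tested miRNAs outside the members were closer to miR-132-3p. Within arrays, miR-132-3p minus miR-212-3p was -2.43, -1.42, -2.83 and -2.39 in EAM and -1.57, -0.56 and -1.17 in LAD. These within-array values compare 2 sets of probes, so only their change between arrays can be read, and that change was not tested. Neither miR-132-5p nor miR-212-5p, the opposite arms, was detected.

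In the miR-183 cluster only mmu-miR-96-5p was detected on any array. It measured 4.76, 5.12, 4.82 and 5.14 in EAM and 4.27, 4.92 and 4.05 in LAD, where LAD 2, the only LAD array that detected it, lay within the EAM range. The means were 4.96 ± 0.20 (SD, n = 4) and 4.41 ± 0.46 (SD, n = 3). The difference was 0.55 (SE 0.24, 95% confidence interval -0.0046 to 1.10), or 1.46-fold, and did not pass (adjusted p = 0.0747). Spots well above background numbered 22, 28, 19 and 30 in EAM and 0, 11 and 0 in LAD. Its 2 probes differed by 0.51 and 0.58.

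The miR-96-5p difference turned to -0.12 under median centring and rose to 0.80 (limma, adjusted p = 0.00202) without LAD 2. LAD 2 was the only LAD array that detected miR-96-5p, which entered the test only through EAM, so that p is a description. Over 21 alternatives the difference passed in 4, with adjusted p from 0.00202 to 0.802. With the main values it lay 0.15 above the median of all miRNAs tested. miR-182-5p, the member known to restrain Foxo1, measured 3.19 to 3.71 in EAM and 3.16 to 3.51 in LAD, with at most 1 of 30 spots well above background on any array. miR-183-5p measured 3.78 to 3.97 and 3.41 to 3.91, likewise with at most 1 such spot. Both lay at the level of undetected miRNAs in both groups, so no fold is given, and these arrays bound their level rather than measure it. The 2 miR-182-5p probes differed in sign.

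For mmu-miR-221-3p, of the Kit- and p27-targeting pair, the level was 4.43, 4.60, 4.58 and 4.76 in EAM and 4.50, 4.36 and 3.71 in LAD. LAD 1 lay inside the EAM range and LAD 3 well below it. The means were 4.59 ± 0.14 (SD, n = 4) and 4.19 ± 0.43 (SD, n = 3), and the difference of 0.40 (SE 0.22, 95% confidence interval -0.11 to 0.92, adjusted p = 0.142), or 1.32-fold, did not pass. It equalled the median difference of all miRNAs tested, 0.40, to 2 decimals. The difference was 0.16 without LAD 3 and -0.32 under median centring, and adjusted p ran from 0.0110 to 0.976 over 21 alternatives, of which 1 passed.

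miR-222-3p was detected on no array, with 1 spot well above background in all, on EAM 4. Its values, 3.67, 3.69, 3.94 and 4.02 in EAM and 3.44, 3.54 and 3.00 in LAD, did not overlap, but signal at this level is not well above background in either group. Its probes are 13 and 14 bases long and leave the last 2 bases of the miRNA uncovered. The centred profiles of miR-221-3p and miR-222-3p lay 0.13 apart, and 1 of 418 tested miRNAs outside the members was closer to miR-221-3p. With miR-222-3p detected nowhere, this is a description of values near background, and the part of array brightness in it was not tested. miR-182-5p was likewise detected nowhere. Its profile lay 0.29 from that of miR-96-5p, and 140 of the 418 were closer to miR-96-5p.

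miR-31-5p, linked to cytokine output and Foxp3, measured 4.17, 4.26, 4.04 and 4.35 in EAM and 3.50, 4.52 and 3.59 in LAD. LAD 2 was the highest of all 7 arrays and the groups overlapped. It was detected on EAM 1, EAM 2, EAM 4 and LAD 2, with at most 3 of 30 spots well above background, and was not tested. The hypoxia-induced miR-210-3p was detected on no array, at 3.76 to 3.89 in EAM and 3.19 to 4.29 in LAD, again highest on LAD 2 and lowest on LAD 3.

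**Figure D4:**
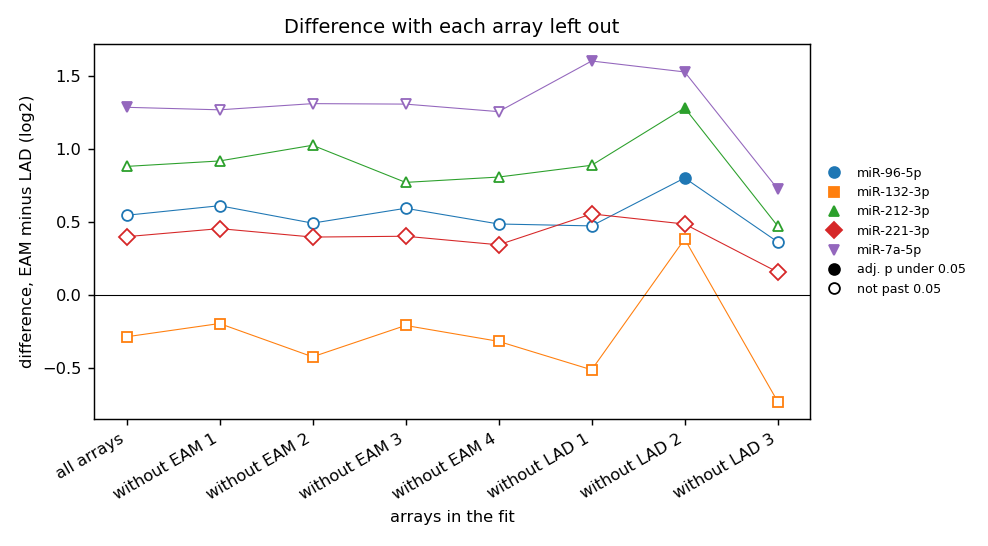
Difference in log2 signal, EAM minus LAD, of the 5 tested members (y axis) with all arrays and with each array left out (x axis); filled marks have an adjusted p under 0.05, and lines only join the marks of a miRNA. Without LAD 2 miR-132-3p moves above 0 and 3 members pass, as do 347 of all 423 miRNAs tested. Without LAD 3 all 5 differences are lower than with all arrays.

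LAD 2 and LAD 3 stood at the ends of the LAD group for most members. LAD 2 was the highest LAD array for 8 of the 10, the exceptions being miR-221-3p and miR-7a-5p, and LAD 3 the lowest for 7, the exceptions being miR-182-5p, miR-183-5p and miR-31-5p. LAD 2 was also the brightest LAD array and LAD 3 the dimmest. Without LAD 2, miR-7a-5p, miR-212-3p and miR-96-5p all passed, as did 347 of all 423 miRNAs tested. The median difference of all 423 was then 0.58. The call of miR-96-5p there is a description, since neither remaining LAD array detected it.

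**Figure D5:**
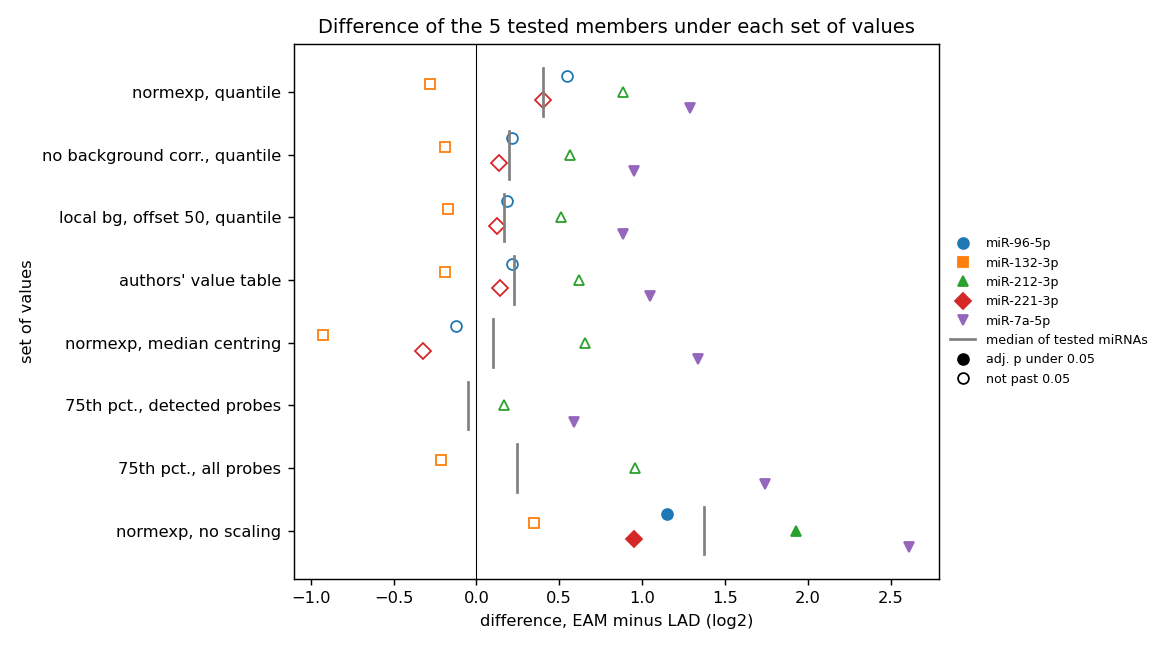
Difference in log2 signal, EAM minus LAD, of the 5 tested members (x axis) under each set of values (y axis); the grey line is the median of all miRNAs tested in that set, and filled marks have an adjusted p under 0.05. miR-7a-5p lies to the right of the median in every set shown, and the median itself moves from -0.05 to 1.37; miR-96-5p and miR-221-3p have no value with either 75th percentile, nor miR-132-3p with that of the detected probes.

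The scaling chosen moved the whole table. The median difference of all tested miRNAs was 0.40 with quantile normalisation, 0.10 with median centring, -0.05 when the 75th percentile was taken over detected probes and 1.37 with no scaling. Of the miRNAs called, 157 of 259 were higher in EAM with quantile normalisation, 83 of 204 with median centring, 36 of 42 when scaled by detected probes, 86 of 98 when the percentile took in all probes, and 296 of 298 with no scaling. miR-7a-5p and miR-212-3p kept their direction in all 24 alternatives, and miR-96-5p, miR-221-3p and miR-132-3p did not.

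Among the miRNAs outside the members, the centred profile nearest to that of miR-7a-5p was miR-467e-5p, at a root-mean-square difference of 0.19 over the 7 arrays (median of 418 others, 0.67). The nearest to miR-212-3p was miR-6898-5p (0.16, median 0.52), to miR-132-3p miR-322-5p (0.16, median 0.77), to miR-96-5p miR-669l-5p (0.065, median 0.39) and to miR-221-3p miR-30d-5p (0.12, median 0.46). These are descriptions over 7 arrays that share each array's brightness.

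Other miRNAs known to rise on T cell activation were taken as a list of 12, of which 10 were tested. Of these 10, 9 were detected on all 7 arrays. The median difference of the 10 was -0.37, against 0.40 for all 423 and -0.09 for the 251 miRNAs that all 7 arrays detected. With the main values 2 were higher in EAM and 1 in LAD, beside 37.1% and 24.1% of all miRNAs tested. These directions followed the scaling: all 5 that passed with no scaling were higher in EAM, as were all 3 that passed when all probes set the 75th percentile, while median centring gave 3 towards EAM and 1 towards LAD. miR-146a-5p, an NF-kB feedback miRNA, was higher in EAM by 1.99 (adjusted p = 0.0160), and miR-155-5p, induced by antigen receptor signals, by 1.15 (adjusted p = 0.0237). Both stayed higher in EAM in all 24 alternatives, of which miR-146a-5p passed in 20 and miR-155-5p in 14. With array weights the differences fell to 0.81 (adjusted p = 0.0238) and 0.42 (adjusted p = 0.0926). Without LAD 3 neither passed (adjusted p = 0.0649 and 0.0856), and miR-155-5p did not pass when any single EAM array was left out (adjusted p from 0.0519 to 0.0609). miR-19b-3p, of a proliferation-linked miRNA cluster, was lower in EAM by the main values (difference -0.72, adjusted p = 0.0274), but the difference was 0.51 under median centring, 0.83 when the 75th percentile took in all probes and 1.79 with no scaling. Its cluster mate miR-20a-5p differed by -0.70 and did not pass (adjusted p = 0.0541), with the same 3 scalings turning its sign. The count of this list that passed was 0 without LAD 3 (limma, with 3 at an unadjusted p under 0.05), 7 without LAD 1, 5 without LAD 2 and 1 when any single EAM array was left out. Of all 423 miRNAs tested, 149, 173 and 347 passed without LAD 3, LAD 1 and LAD 2, and 119 to 163 without an EAM array.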

How the data were processed

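miRNA from bead-selected CD4+ T cells of 7 samples (EAM, 4; LAD, 3) was labelled with Cy3, per the labels' protocols, and read by Agilent Feature Extraction 10.7.3.1, per the file headers. The deposited scanner files hold unscaled intensity per spot, total gene signal as intensity per miRNA, and 0 or 1 marks (other) for detection and spot quality. The authors' deposited value table is in log2 units; RMA is named in the submitters' processing notes, with no version.

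Mean spot signal of 56430 non-control spots was corrected with normexp (foreground only, no offset; limma 3.58.1 in R 4.3.3; files were read with the data.table package, version 1.17.8), quantile normalised and log2 transformed. Values are the median over the 15 spots of a probe, without those marked as outliers, and then a median polish over probes. miRNAs that all arrays of EAM or of LAD detected (423 of 1881) were fitted with limma (lmFit, eBayes; Benjamini-Hochberg, 0.05), with no covariate. The script was tested on simulated data. The number of arrays limits the precision. A confidence interval is that of the limma fit.

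Named were all 10 members, detected other arms and paralogs, miRNAs with a member's seed, for each tested member the miRNA with the nearest centred profile, and up to 4 of an activation list with the smallest p. The members, lists and tests were chosen with earlier results of these data known. Alternatives changed the background correction, scaling, probe summary, detection filter, variance model, replicate block and arrays used; normexp fitted on all spots, and quantile normalisation after the spot median, were added after seeing the data. Values under the 75th percentile scalings and total gene signal have a floor, and a miRNA at the floor on all 7 arrays was not tested there. Same-numbered samples of the groups did not deviate together, so replicate numbers were not taken as pairs.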

Additional observations from a re-analysis of the deposited data

How the results depend on the processing

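With 4 and 3 arrays and a dim LAD group, members near background are bounded rather than measured. Counts past the threshold were 259 of 423 miRNAs, 1 of the members, 2 of the other arms and paralogs, and 3 of the activation list. Scaling by detected probes (75th percentile) gave 42 of 231 miRNAs, 1 member, 0 arms and 1 of the activation list. A single arm could be tested there in limma and was not past an unadjusted p of 0.05 either. When all probes set the percentile, 98 of 322 miRNAs and 1 arm passed, and with median centring 204 of 423 miRNAs and 1 arm. With no scaling 298 of 423 miRNAs, 4 members and 5 of the activation list passed. With total gene signal 186 of 423 miRNAs, 0 members (limma, 2 at an unadjusted p under 0.05) and 1 of the activation list passed. Requiring detection on all 7 arrays left 137 of 251 miRNAs and 1 arm. Of those 137, 52 were higher in EAM and 85 in LAD, against 157 and 102 in the main fit. With no filter 507 of 1881 miRNAs and 2 members passed in limma. The added member was miR-222-3p, detected on no array (adjusted p = 0.0484). Array weights gave 3 members and 349 of 423 miRNAs, and quantile normalisation after the spot median gave 2 members and 275 of 423 miRNAs. The unequal-variance test and the limma test against a fold of 1.5 passed 0 miRNAs, with 122 and 94 at an unadjusted p under 0.05, and so 0 in each list; at that unadjusted level both had 0 members, they had 2 and 0 arms, and 0 and 1 of the activation list. Leaving out each array in turn gave 119 to 347 miRNAs, 0 to 3 members and 0 to 7 of the activation list, with 2 arms throughout; the 0 members came when any single EAM array was left out, with 1 or 2 at an unadjusted p under 0.05.

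Differences changed sign for miR-96-5p (-0.12) and miR-221-3p (-0.32) under median centring. That of miR-132-3p did so with no scaling (0.35), total gene signal (1.32), array weights (0.17) and without LAD 2 (0.39). It was -0.73 without LAD 3. With total gene signal, miR-132-3p lay at the floor on LAD 1 and LAD 3. miR-7a-5p and miR-212-3p did not change sign in a setting that gave a value. The 5 untested members changed sign under median centring too: miR-182-5p to -0.73, miR-183-5p to -0.60, miR-222-3p to -0.36, miR-31-5p to -0.48 and miR-210-3p to -0.72. Median centring shifts all miRNAs of an array alike, so every difference moves from its unscaled value by the same amount. That of miR-182-5p went from 0.55 to -0.73 and that of miR-7a-5p from 2.61 to 1.34. Apart from miR-31-5p, the untested members were detected on no array. Same-numbered samples correlated at 0.18, -0.18 and -0.18 in their deviations from the group means, so the numbers do not show pairs; with replicate number as a replicate block, on replicates 1 to 3 only, 58 miRNAs, 0 members (1 at an unadjusted p under 0.05), 0 arms (2) and 1 of the activation list passed in limma.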
